A study of Mus musculus with 12 samples.

Results

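Antigen presentation by MHC class I was examined in 10 genes of cultured type II alveolar epithelial (AT2) cells: *H2-K1*, *H2-D1*, *B2m*, *Tap1*, *Tap2*, *Tapbp*, *Zbtb22*, *Nlrc5*, *Psmb8* and *Psmb9*. All 10 were found among the 55450 genes of the deposited table, and all had counts in each of the 12 libraries. Of these genes, 9 were chosen for their part in class I presentation. *Zbtb22*, a zinc finger protein gene that lies in the same stretch of chromosome as *Tapbp*, was chosen by its CPM in these libraries, which is low in 1 of the 4 groups, so its values are described without a test. The cells came from mice on a C57BL/6 background, 6 to 8 weeks of age, of the genotype AhRfl/fl, in which the aryl hydrocarbon receptor gene is floxed, or Sftpc-Cre;AhRfl/fl, in which Cre made from the surfactant protein C locus deletes that gene in AT2 cells. Both genotypes therefore carry the floxed allele. AT2 cells were isolated with Dispase, depleted of leukocytes and other cells with antibodies to CD16/32, CD45, Ter119 and Sca-1 and by panning on IgG, and were cultured on collagen I. They received PBS or cockroach extract (CRE) at 50 µg/ml, and RNA was taken after 24 h. Each of the 4 groups (AhRfl/fl PBS, AhRfl/fl CRE, Sftpc-Cre;AhRfl/fl PBS and Sftpc-Cre;AhRfl/fl CRE) held 3 libraries of stranded mRNA. The labels do not say whether the libraries of a group came from separate mice or cultures, so the p-values measure the spread between these libraries, which may be technical.

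Class I molecules display peptides from the cytosol to CD8 T cells. The proteasome cuts proteins into peptides, and the interferon-inducible subunits encoded by *Psmb8* and *Psmb9* replace constitutive ones to form the immunoproteasome. The TAP transporter (*Tap1* and *Tap2*) carries the peptides into the endoplasmic reticulum, tapasin (*Tapbp*) holds an empty heavy chain (*H2-K1* or *H2-D1*, paired with β2-microglobulin from *B2m*) beside the transporter until a peptide is bound, and NLRC5 is a transactivator of most of these genes. In the lung AT2 cells make surfactant and are also able to present antigen.

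On GRCm38 with the GENCODE M21 annotation, 8 of the 10 genes lie on chromosome 17 in or beside the MHC. *Tap1* (chr17:34187553-34197225, plus strand), *Psmb8* (chr17:34197721-34201454, plus) and *Tap2* (chr17:34203527-34216321, plus) follow each other, and *Psmb9* (chr17:34181987-34187764, minus) starts against *Tap1*. *H2-K1* lies at chr17:33996017-34000347 on the minus strand and *H2-D1* at chr17:35262730-35267499 on the plus strand. *B2m* (chr2:122147686-122153083, plus) and *Nlrc5* (chr8:94434356-94527272, plus) are elsewhere. *Tapbp* (chr17:33915899-33929292) and *Zbtb22* (chr17:33915904-33919325) share the plus strand.

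RefSeq promoter sequence on GRCm38.p6 was found for 8 of the 10 genes. The 250 bases before the start of these entries were searched on both strands for 3 short motifs. The motifs are the core of the response element that AhR binds (GCGTG), an interferon response element (GAAANNGAA) and an NF-κB site (GGGGATTCC). The start used can differ from that of GENCODE. The windows of *H2-D1* (chr17:35262844-35263093), *Tapbp*, *Zbtb22*, *Psmb8* and *Psmb9* lie inside the gene spans given above. GCGTG was found in 28.2% of all 32851 promoter windows of this length and in those of *H2-D1*, *Tap1*, *Psmb8* and *Psmb9*. GAAANNGAA was found in 7.13% of all windows and among these genes in that of *B2m* alone. Other arrangements of an interferon response element were not searched for. The windows of *H2-K1*, *H2-D1* and the other genes are therefore not shown to lack such an element. GGGGATTCC was found in 0.213% of all windows and in those of both heavy chain genes. The windows of *Tapbp* and *Zbtb22* held none of the 3. The sequences around the NF-κB and interferon motifs are printed 5′ to 3′ because these are the elements by which class I genes are best known to respond to inflammatory signals, with the motif in capitals. For *H2-K1* the 250 bases before the start (chr17:34000348-34000597, minus strand), for *H2-D1* 30 bases around the motif (chr17:35262913-35262942, plus) and for *B2m* 249 bases before the start (chr2:122147437-122147685, plus) are given.
*H2-K1*: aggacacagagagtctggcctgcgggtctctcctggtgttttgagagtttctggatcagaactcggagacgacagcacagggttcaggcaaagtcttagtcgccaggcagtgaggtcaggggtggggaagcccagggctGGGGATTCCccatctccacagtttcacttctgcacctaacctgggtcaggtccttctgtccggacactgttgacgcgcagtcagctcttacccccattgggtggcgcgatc
*H2-D1*: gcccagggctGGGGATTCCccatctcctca
*B2m*: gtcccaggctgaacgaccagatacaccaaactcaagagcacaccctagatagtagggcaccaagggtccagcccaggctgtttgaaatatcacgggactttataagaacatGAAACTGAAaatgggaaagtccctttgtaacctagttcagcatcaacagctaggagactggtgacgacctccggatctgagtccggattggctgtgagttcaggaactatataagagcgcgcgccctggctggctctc
The matches describe these letters in these windows and are not binding sites seen in the cells.

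The total count per library lay between 68878065 and 80935797, and levels are given as CPM, the count scaled to library size after TMM normalization. *Sftpc*, the defining AT2 gene, lay between 3086 and 6492 CPM. The summed level of 11 leukocyte markers lay between 95.9 and 468 CPM, and in each group it was highest in library 1. The level of *Ahr* summed over all its exons was 44.0 ± 1.10 CPM (SD, n = 3) in AhRfl/fl and 45.2 ± 4.73 CPM in Sftpc-Cre;AhRfl/fl cells with PBS, and 52.3 ± 3.43 and 46.2 ± 7.42 CPM with CRE. These groups overlapped, so this level does not check the deletion, and genotype below is that of the labels. Reads from fewer cells of a type and from less RNA per cell cannot be told apart in these bulk libraries.

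Per length of transcript the genes of the class I molecule itself were the most abundant of the 10 genes. Levels per length were not compared with those of other genes of the pathway. On the deposited FPKM, which divides each count by the length of all exons of the gene, *B2m* ranged over the 12 libraries from 275 to 509 FPKM with a median of 377 FPKM. *H2-D1* (median 301 FPKM, 260 to 330) and *H2-K1* (median 151 FPKM, 136 to 179) came next. *B2m* was above *H2-D1* in 10 of 12 libraries and their ranges overlapped, whereas the ranges of *H2-D1* and *H2-K1* did not on this scale. *Tapbp* followed with a median of 60.3 FPKM (31.3 to 74.7), again with no overlap with the gene above. *Tap2* (median 13.4 FPKM, 12.2 to 14.6) and *Zbtb22* (median 12.1 FPKM, 2.21 to 13.9) overlapped, and so did *Zbtb22* and *Psmb8* (median 8.03 FPKM, 6.04 to 11.5). *Tap1* (median 2.97 FPKM), *Psmb9* (median 1.5 FPKM) and *Nlrc5* (median 0.606 FPKM, 0.162 to 1.48) were lowest, and each overlapped the next. The exon length of *Tap1*, *Psmb8* and *Psmb9* includes transcripts with retained introns. With CPM per kb of the longest coding transcript instead, *Psmb8* stood above *Tap2* and *Zbtb22*, at a median of 19.0 against 16.7 and 13.6 CPM per kb, and those of *H2-D1* and *H2-K1* overlapped. The order of the other genes was the same on both scales.

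The classical heavy chains and *Tap2* varied little. *H2-K1* was at 485, 529 and 462 CPM in AhRfl/fl PBS, 484, 595 and 481 in AhRfl/fl CRE, 430, 519 and 480 in Sftpc-Cre;AhRfl/fl PBS and 483, 484 and 522 CPM in Sftpc-Cre;AhRfl/fl CRE libraries. All 4 groups overlapped. *H2-D1* was at 917, 968 and 842 CPM in AhRfl/fl PBS, 873, 907 and 859 in AhRfl/fl CRE, 793, 735 and 836 in Sftpc-Cre;AhRfl/fl PBS and 837, 880 and 898 CPM in Sftpc-Cre;AhRfl/fl CRE libraries. The 3 Sftpc-Cre;AhRfl/fl PBS libraries were the lowest of the 12 and overlapped neither AhRfl/fl PBS nor Sftpc-Cre;AhRfl/fl CRE. *Tap2* was at 60.5, 56.8 and 54.3 CPM in AhRfl/fl PBS, 58.3, 58.9 and 58.6 in AhRfl/fl CRE, 58.7, 52.9 and 54.7 in Sftpc-Cre;AhRfl/fl PBS and 58.0, 51.4 and 56.4 CPM in Sftpc-Cre;AhRfl/fl CRE libraries, so that its highest library was 1.18-fold above its lowest. The heavy chain genes share sequence with other genes, in which 9.63% of the 50-base stretches of *H2-K1* and 12.8% of those of *H2-D1* also occur. The gene that shares most is *H2-Q10* for *H2-K1* (5.18%) and *H2-Q1* for *H2-D1* (5.87%). A part of these counts therefore depends on how reads that fit several genes were shared out.

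*B2m* and *Tap1* were higher in library 1 of every group. *B2m* was at 477, 332 and 267 CPM in AhRfl/fl PBS, 478, 310 and 280 in AhRfl/fl CRE, 400, 326 and 352 in Sftpc-Cre;AhRfl/fl PBS and 416, 373 and 403 CPM in Sftpc-Cre;AhRfl/fl CRE libraries. *Tap1* was at 24.9, 14.8 and 14.0 CPM in AhRfl/fl PBS, 21.9, 19.4 and 17.6 in AhRfl/fl CRE, 23.7, 16.1 and 14.2 in Sftpc-Cre;AhRfl/fl PBS and 20.9, 19.9 and 16.1 CPM in Sftpc-Cre;AhRfl/fl CRE libraries. For both genes all groups overlapped. *Tap1* and *Psmb9* share 212 exonic bases on opposite strands, and whether the counting used the strand is not given in the sources used here.

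The immunoproteasome subunits and *Nlrc5* also had library 1 highest in every group. *Psmb8* was at 41.6, 29.5 and 23.1 CPM in AhRfl/fl PBS, 42.6, 32.3 and 24.6 in AhRfl/fl CRE, 35.9, 27.6 and 22.9 in Sftpc-Cre;AhRfl/fl PBS and 40.8, 34.0 and 27.5 CPM in Sftpc-Cre;AhRfl/fl CRE libraries. *Psmb9* was at 7.24, 6.66 and 3.49 CPM in AhRfl/fl PBS, 8.76, 5.86 and 3.25 in AhRfl/fl CRE, 10.7, 5.66 and 5.20 in Sftpc-Cre;AhRfl/fl PBS and 10.9, 7.04 and 5.91 CPM in Sftpc-Cre;AhRfl/fl CRE libraries. *Nlrc5* was at 9.80, 2.51 and 1.57 CPM in AhRfl/fl PBS, 12.8, 5.52 and 2.09 in AhRfl/fl CRE, 13.6, 3.54 and 6.12 in Sftpc-Cre;AhRfl/fl PBS and 11.9, 3.33 and 6.57 CPM in Sftpc-Cre;AhRfl/fl CRE libraries. *Nlrc5* had the widest range of the 10 genes, 8.62-fold between its lowest and highest library, and library 1 was 2.40 to 4.80 times the mean of the other 2 of its group.

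**Figure D1:**
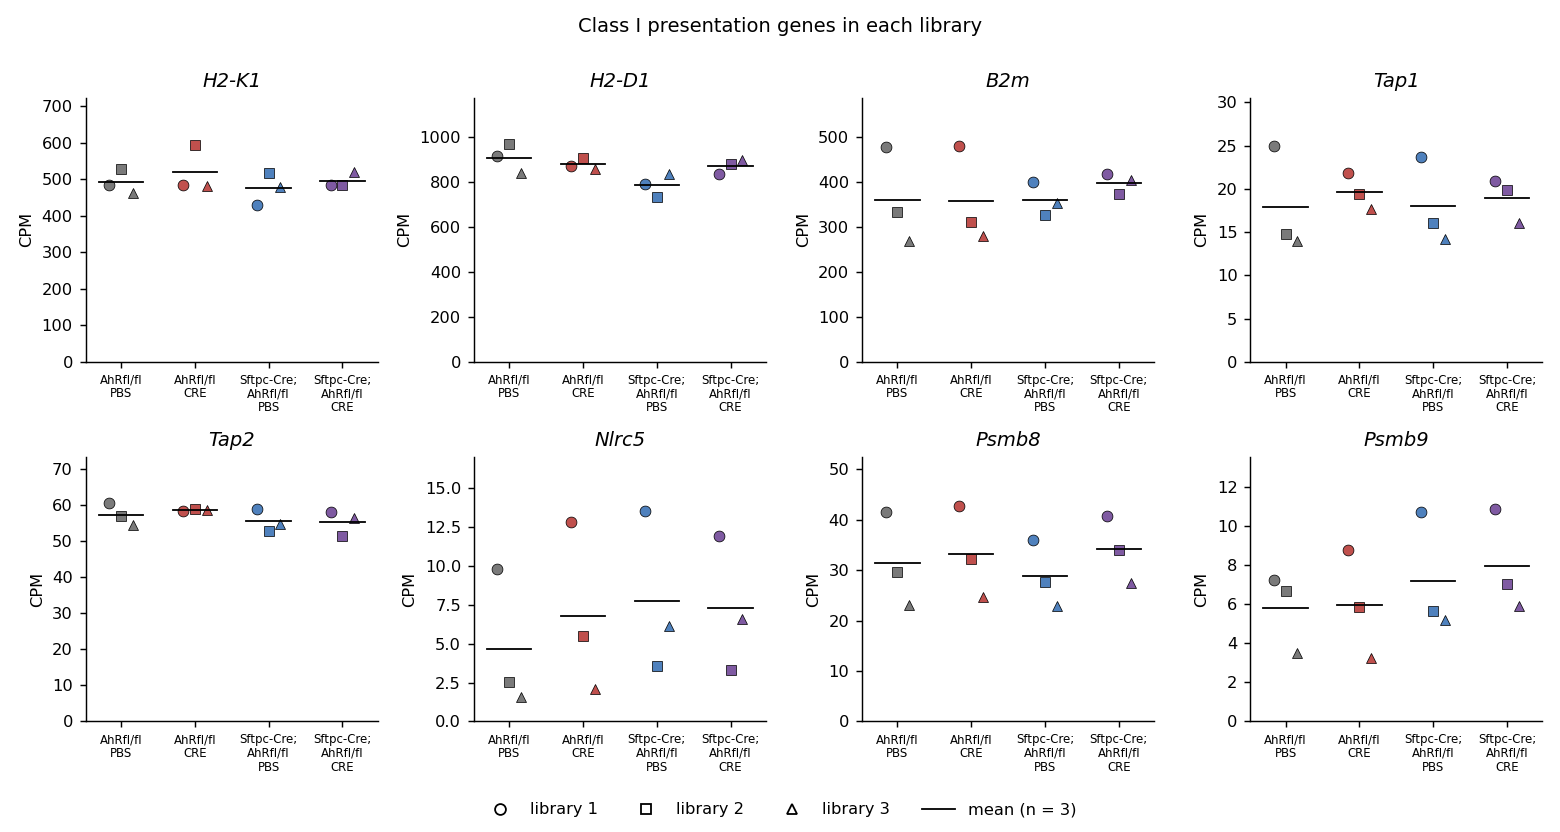
CPM (linear axis from 0) of 8 class I presentation genes in each library of the 4 groups, with the libraries of a group marked by their number and a bar at the group mean (n = 3). H2-K1, H2-D1 and Tap2 stay within narrow bands, while B2m, Tap1, Nlrc5, Psmb8 and Psmb9 have library 1 highest in all 4 groups.

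With edgeR's quasi-likelihood test over all 20612 genes tested, none of the 9 class I genes tested was called at an adjusted p below 0.05 in any comparison. The first question was whether CRE changed these genes. In AhRfl/fl cells 0.233% of all genes were called (48 genes), and the 9 class I genes had log2 fold changes between -0.05 (*H2-D1*) and 0.56 (*Nlrc5*), a median of 0.08 beside -0.00118 over all genes tested, and adjusted p between 0.816 and 1.00; 0 of 9 had an unadjusted p below 0.05. The groups of 0 of the 9 genes were free of overlap, against 16.5% of all genes. In Sftpc-Cre;AhRfl/fl cells 0.262% of all genes were called, the class I genes lay between -0.09 (*Nlrc5*) and 0.50 (*Tapbp*) with a median of 0.15 beside -0.00265, and the smallest adjusted p was 0.816, with 0 of 9 at an unadjusted p below 0.05 in edgeR and 1 of 9 in DESeq2. In these cells the CRE and PBS groups of *H2-D1* and *Tapbp* did not overlap, that is 2 of 9 genes against 11.8% of all genes. For *H2-D1* the fitted change was 0.15 ± 0.072 on the log2 scale (SE, adjusted p = 0.816 in edgeR) and for *Tapbp* 0.50 ± 0.26 (adjusted p = 0.833).

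The same-number CRE and PBS libraries of a genotype deviated together, so the fit with the replicate number as a block within each genotype bears on this question. It called 3.63% of all genes in AhRfl/fl cells (748 genes) and 2.13% in Sftpc-Cre;AhRfl/fl cells (439 genes), and again 0 of the 9 class I genes in each. In AhRfl/fl cells *Nlrc5* was nearest to the threshold at 0.64 ± 0.17 on the log2 scale (SE, adjusted p = 0.103 in edgeR), and it was higher with CRE in 3 of 3 pairs. In Sftpc-Cre;AhRfl/fl cells 4 of the 9 had an unadjusted p below 0.05, beside 2911 of all 20612 genes. They were *Psmb8* (0.25 ± 0.059, adjusted p = 0.101 in edgeR), *Tapbp* (0.55 ± 0.16, adjusted p = 0.180), *H2-D1* (0.15 ± 0.045, adjusted p = 0.200) and *B2m* (0.15 ± 0.047, adjusted p = 0.210), and each was higher with CRE in 3 of 3 pairs. None of these passed the correction over all genes. In that fit the intervals of *H2-K1* and *Tap2* were narrow: the 95% interval of the log2 change with CRE ran from -0.07 to 0.22 and from -0.09 to 0.16 in AhRfl/fl cells, and from -0.08 to 0.21 and from -0.13 to 0.12 in Sftpc-Cre;AhRfl/fl cells.

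The next question was whether the genotypes differed. With PBS 0.150% of all genes were called and none of the 9. *H2-D1* was 0.21 lower on the log2 scale in Sftpc-Cre;AhRfl/fl cells, at a mean of 788 ± 50.9 CPM (SD, n = 3) against 909 ± 63.5 CPM in AhRfl/fl cells, with a 95% interval of the log2 difference from -0.37 to -0.05, an unadjusted p of 0.0164 and an adjusted p of 0.489 in edgeR. It was the only one of the 9 whose groups did not overlap in this comparison, against 14.0% of all genes. Over the alternatives its adjusted p ranged from 0.287 to 0.925. The summed level of 9 AT2 markers was 4414, 6201 and 8628 CPM in these Sftpc-Cre;AhRfl/fl libraries and 8173, 8517 and 7544 CPM in the AhRfl/fl libraries, and its part in the difference was not tested. The median of the 9 log2 differences was -0.05 beside -0.00103 over all genes tested. With CRE 0.170% of all genes were called and none of the 9, with adjusted p between 0.999 and 1.00 in edgeR. The median of the 9 was 0.04 beside -0.00337, and *Tap2*, at 51.4 to 58.0 against 58.3 to 58.9 CPM, was the only one without overlap, against 11.0% of all genes. For the difference between the CRE responses of the genotypes, edgeR called 0% of all genes, also with the block in each genotype, where 763 of all genes and 0 of the 9 had an unadjusted p below 0.05 without the block. DESeq2 called 22 genes and none of the 9. With the block 1874 of all 20612 genes had an unadjusted p below 0.05. Among them were 3 of the 9: *H2-D1* (0.19 ± 0.064), *Nlrc5* (-0.70 ± 0.24) and *B2m* (0.16 ± 0.067), with adjusted p of 0.511, 0.511 and 0.548 in edgeR.

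**Figure D2:**
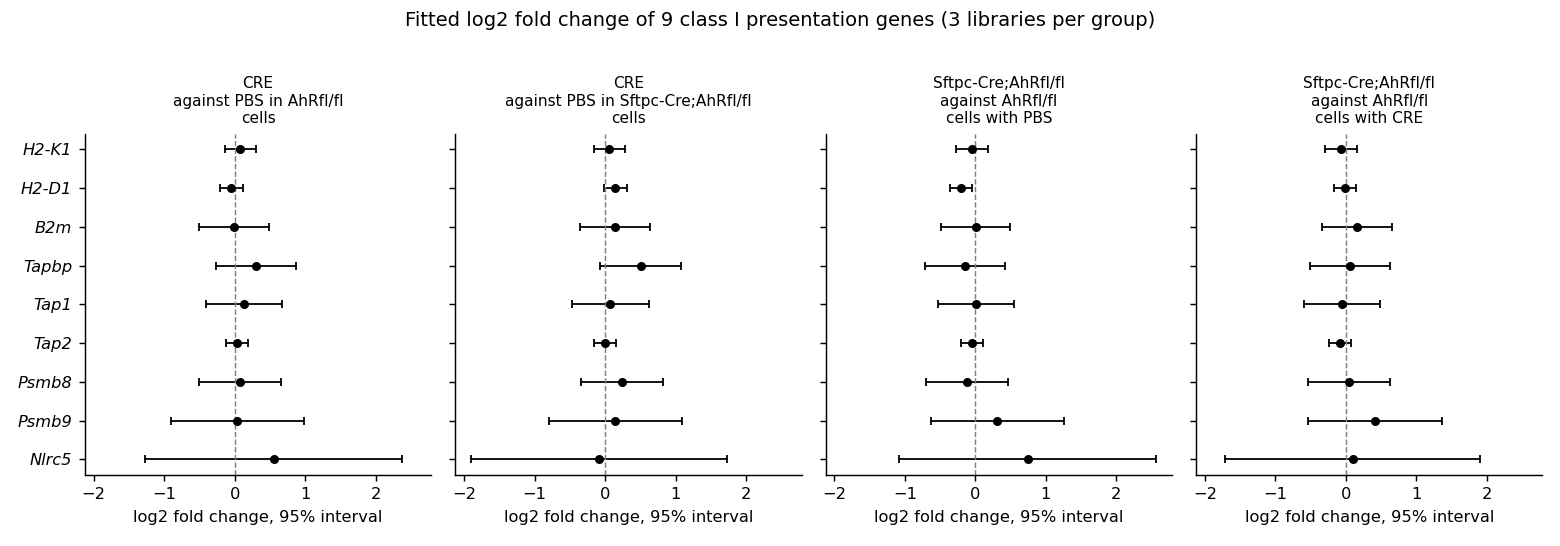
Fitted log2 fold change (horizontal axis) of 9 class I presentation genes in 4 comparisons of 3 libraries with 3, with points at the edgeR estimate and bars for the 95% interval. All intervals but that of H2-D1 between genotypes with PBS include 0, and those of Tap2, H2-D1 and H2-K1 are narrow whereas that of Nlrc5 spans more than 3 log2 units.

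The rule of the study, which is limma-trend at p below 0.05 without adjustment and a log2 change of more than 0.5 either way, called 4.11% and 3.38% of all genes with CRE in AhRfl/fl and Sftpc-Cre;AhRfl/fl cells. Between genotypes it called 4.10% with PBS and 3.42% with CRE, and 2.30% for the difference of the responses. It called none of the 9 class I genes in any of the 5. The standard errors differed widely among the 9. With CRE in AhRfl/fl cells they were 0.069 for *Tap2*, 0.072 for *H2-D1* and 0.10 for *H2-K1*, 0.22 for *B2m*, 0.25 for *Tap1*, 0.26 for *Tapbp* and *Psmb8*, 0.43 for *Psmb9* and 0.82 for *Nlrc5*. The 95% interval for *Nlrc5* in that comparison ran from -1.27 to 2.38, so this fit left the direction and size of its change open. With the block in each genotype it ran from 0.23 to 1.05, and *Nlrc5* was not called there either (adjusted p = 0.103 in edgeR).

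Most genes with wide intervals were high in the same libraries as the leukocyte markers. *Ptprc*, which encodes the pan-leukocyte protein CD45, was at 66.5, 9.08 and 3.41 CPM in AhRfl/fl PBS, 67.5, 12.1 and 2.19 in AhRfl/fl CRE, 54.2, 10.3 and 20.7 in Sftpc-Cre;AhRfl/fl PBS and 47.4, 9.70 and 17.8 CPM in Sftpc-Cre;AhRfl/fl CRE libraries. The sum of the 11 markers was 468, 140 and 95.9 CPM in AhRfl/fl PBS and 452, 198 and 157 CPM in AhRfl/fl CRE libraries. In Sftpc-Cre;AhRfl/fl libraries it was 369, 114 and 146 CPM with PBS and 390, 168 and 185 CPM with CRE. None of the 11 was at 0 in every library. Over the 12 libraries, the log2 level of this sum and that of each gene had a Pearson r of 0.89 for *Tap1*, *Psmb8* and *Nlrc5*, 0.855 for *B2m* and 0.765 for *Psmb9*, but of 0.14 for *H2-D1* and -0.25 for *H2-K1*. These are descriptions of 12 libraries that fall into separate clusters, since libraries 1 stood apart. Over the 8 libraries without them r was 0.68 for *Tap1*, 0.56 for *Psmb8*, 0.66 for *Nlrc5*, 0.53 for *B2m* and 0.44 for *Psmb9*, and also 0.53 for *H2-D1* and 0.56 for *H2-K1*. The marker *Cd14* was higher with CRE, so the sum does not follow leukocytes alone in these 8 libraries. In library 3 of AhRfl/fl CRE *Cd14* made up 121 of the 157 CPM, while *Ptprc* was at its lowest, 2.19 CPM. The alveolar macrophage markers, 7 in all, were summed at 45.5 to 105 CPM in the libraries numbered 1 and at 16.2 to 31.8 CPM in the others. The trait was not particular to leukocytes: 6 endothelium markers were summed at 69.6 to 90.3 CPM in the libraries numbered 1 and at 41.7 to 63.6 CPM in the others. The sum of 7 fibroblast markers was highest in library 1 of both AhRfl/fl groups (199 and 179 CPM). In both Sftpc-Cre;AhRfl/fl groups it was highest in library 2 (272 and 232 CPM). Over the 12 libraries r with the endothelium sum was 0.76 for *Tap1*, 0.69 for *Psmb8*, 0.61 for *B2m*, 0.54 for *Nlrc5* and 0.52 for *Psmb9*. Over the 8 libraries without those numbered 1 it was 0.071 for *Tap1*, -0.096 for *Psmb8*, -0.27 for *B2m*, -0.54 for *Nlrc5* and -0.28 for *Psmb9*. The part of leukocytes or other cells in the levels of these genes was not tested.

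**Figure D3:**
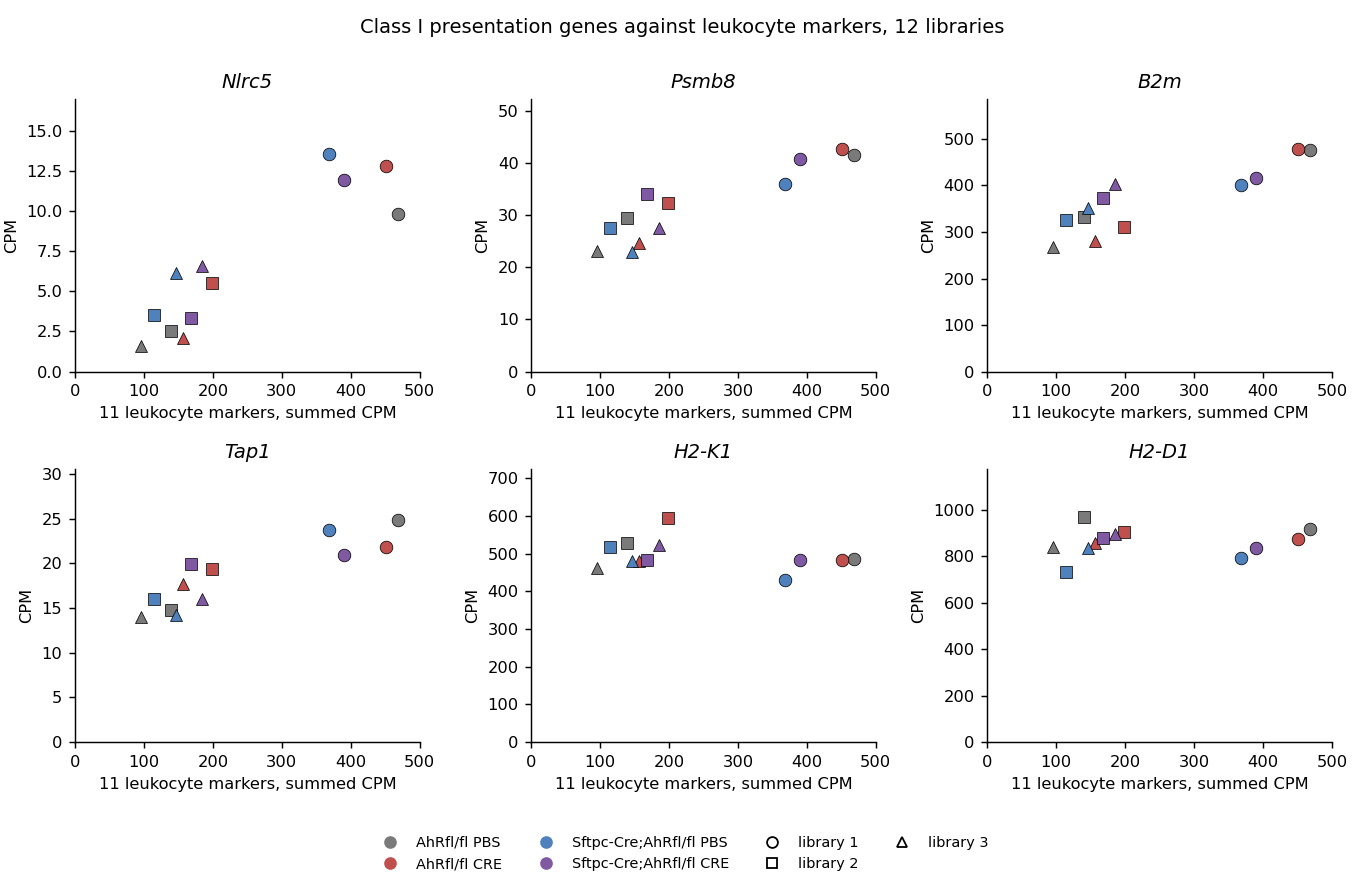
CPM of 6 class I presentation genes (vertical, linear from 0) against the summed CPM of 11 leukocyte markers (horizontal, linear) in the 12 libraries, with groups by colour and library numbers by symbol. The 4 libraries numbered 1 lie at 369 to 468 CPM of markers and above all others for Nlrc5, Psmb8 and Tap1, but not for H2-K1 and H2-D1.

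Without the 4 libraries numbered 1, a setting chosen after the data were seen, none of the 9 genes was called either. In that fit the standard error of *Nlrc5* with CRE in AhRfl/fl cells was 0.57 in place of 0.82 and that of *B2m* 0.12 in place of 0.22. *B2m* was then 0.39 ± 0.12 higher on the log2 scale in Sftpc-Cre;AhRfl/fl than in AhRfl/fl cells with CRE (adjusted p = 0.660 in edgeR), beside 0.16 ± 0.22 with all libraries. *Nlrc5* was 1.25 ± 0.57 higher in Sftpc-Cre;AhRfl/fl cells with PBS (adjusted p = 0.662 in edgeR), beside 0.74 ± 0.83.

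*Tapbp* varied in another way. It was at 142, 280 and 230 CPM in AhRfl/fl PBS, 238, 291 and 273 in AhRfl/fl CRE, 220, 240 and 127 in Sftpc-Cre;AhRfl/fl PBS and 279, 303 and 251 CPM in Sftpc-Cre;AhRfl/fl CRE libraries. Library 1 of AhRfl/fl PBS and library 3 of Sftpc-Cre;AhRfl/fl PBS were low, while the other 10 lay between 220 and 303 CPM. The log2 change with CRE was smaller without these 2 PBS libraries, a setting chosen after the data were seen. It was 0.07 ± 0.12 in place of 0.30 ± 0.26 in AhRfl/fl cells (adjusted p = 0.889 in edgeR). In Sftpc-Cre;AhRfl/fl cells it was 0.27 ± 0.12 in place of 0.50 ± 0.26 (adjusted p = 0.793 in edgeR). Both libraries are the lowest of their PBS groups, so leaving them out lowers this change by construction. In Sftpc-Cre;AhRfl/fl cells the PBS libraries left, at 220 and 240 CPM, were still below all CRE libraries (251 to 303 CPM).

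*Zbtb22* was low in AhRfl/fl CRE libraries. It was at 40.9, 40.9 and 38.3 CPM in AhRfl/fl PBS, 10.1, 6.70 and 12.1 in AhRfl/fl CRE, 35.8, 36.0 and 35.3 in Sftpc-Cre;AhRfl/fl PBS and 31.3, 40.6 and 35.5 CPM in Sftpc-Cre;AhRfl/fl CRE libraries. The counts behind the low values were 813, 500 and 904, against 2467 to 3063 in the other 9 libraries. The gap between the highest AhRfl/fl CRE library and the lowest of the other 9 was 2.58-fold, and the mean of AhRfl/fl cells was 4.15-fold higher with PBS (40.0 ± 1.47 CPM, SD, n = 3) than with CRE (9.65 ± 2.75 CPM). In Sftpc-Cre;AhRfl/fl cells the means were 35.7 ± 0.355 CPM with PBS and 35.8 ± 4.66 CPM with CRE, and these groups overlapped. This pattern is the reason why the gene was picked, and its values are therefore a description.

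*Tapbp* and *Zbtb22* can share reads, since they overlap on 1 strand. Their exons have 149 bases in common, in stretches of 61 bases (chr17:33915904-33915964) and 88 bases (chr17:33916186-33916273), through short *Tapbp* transcripts that begin at the start of *Zbtb22*. These bases make up 5.57% of the exonic bases of *Zbtb22* and 4.11% of those of *Tapbp*. The first *Tapbp* exon that starts beyond the end of *Zbtb22* begins 7 bases after it. An antisense gene, *Gm19412*, overlaps both and had 96 to 216 counts. In AhRfl/fl cells the means of *Zbtb22* with PBS and CRE differed by 30.4 CPM, which is below the SD of *Tapbp* with PBS (69.8 CPM) and above that with CRE (27.3 CPM). Whether reads passed from one gene to the other in the counting was not tested.

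The sum of both genes was 183, 321 and 269 CPM in AhRfl/fl PBS, 248, 298 and 285 in AhRfl/fl CRE, 256, 276 and 162 in Sftpc-Cre;AhRfl/fl PBS and 310, 343 and 286 CPM in Sftpc-Cre;AhRfl/fl CRE libraries. The sum overlapped between CRE and PBS in AhRfl/fl cells, with a log2 ratio of the means of 0.10, and did not overlap in Sftpc-Cre;AhRfl/fl cells, with a log2 ratio of 0.44. *Zbtb22* made up 22.3%, 12.7% and 14.3% of the summed counts in AhRfl/fl PBS, 4.09%, 2.25% and 4.25% in AhRfl/fl CRE, 14.0%, 13.0% and 21.7% in Sftpc-Cre;AhRfl/fl PBS and 10.1%, 11.8% and 12.4% in Sftpc-Cre;AhRfl/fl CRE libraries. The 2 highest shares were those of the libraries low in *Tapbp*, where *Zbtb22* itself was at 40.9 and 35.3 CPM. The 3 lowest were those of AhRfl/fl CRE, where *Tapbp* was at 238 to 291 CPM. Over the 12 libraries the log2 levels of *Tapbp* and *Zbtb22* had a Pearson r of -0.31, given as a description.

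**Figure D4:**
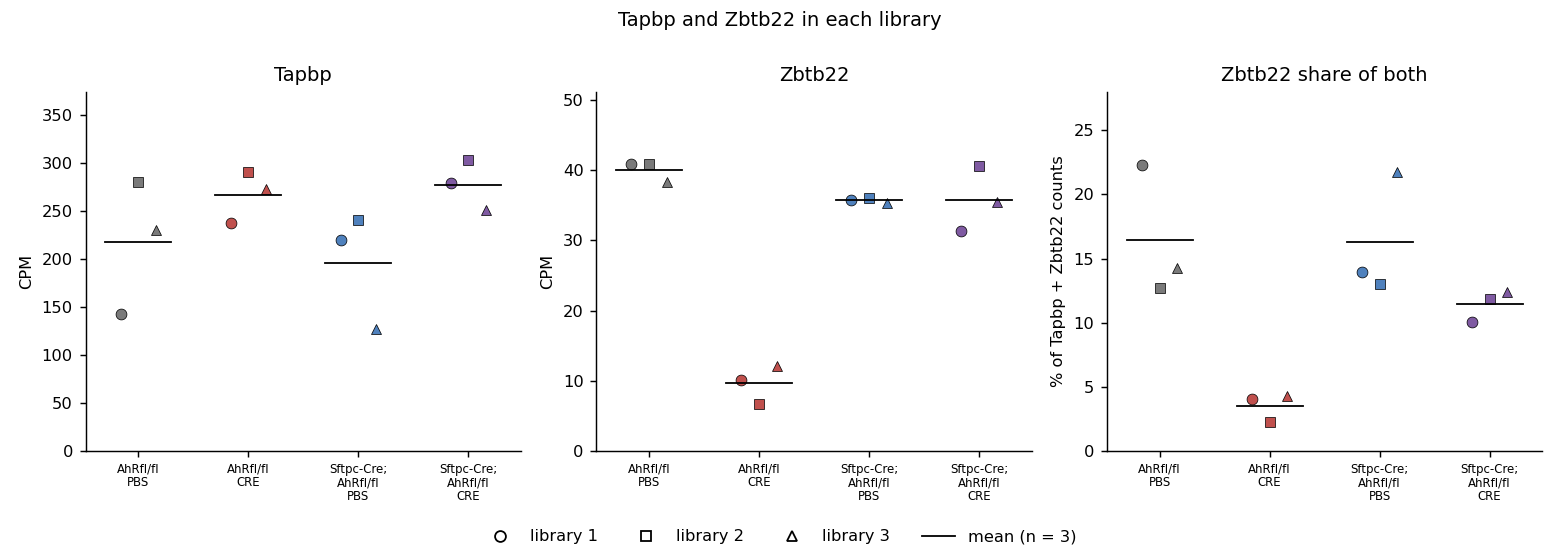
CPM of Tapbp (left) and Zbtb22 (middle) and the share of Zbtb22 in their summed counts in % (right), on linear axes from 0, in each library of the 4 groups, with a bar at the group mean (n = 3). Zbtb22 is low in the 3 AhRfl/fl CRE libraries alone (6.70 to 12.1 CPM), and Tapbp is low in 1 library of each PBS group (142 and 127 CPM).

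Of the 34 annotated genes that reach within 100 kb of *Tapbp*, 21 were tested besides the genes already named, and 0 of them was called in any of the 4 comparisons of groups. In these comparisons 0.150% to 0.262% of all genes were called. With CRE in AhRfl/fl cells their log2 fold changes lay between -0.40 and 0.33, with a median of -0.05, beside the difference of -2.05 for *Zbtb22* in the same fit. The lowest was *Pfdn6*, a subunit of the prefoldin chaperone, at -0.40 ± 0.18 (unadjusted p = 0.0493, adjusted p = 0.531 in edgeR). *H2-Ke6* was at -0.37 ± 0.16 (unadjusted p = 0.0393, adjusted p = 0.505 in edgeR). These were the 2 of the 21 with an unadjusted p below 0.05 there, beside 1929 of all 20612 genes. With CRE in Sftpc-Cre;AhRfl/fl cells *Pfdn6* went the other way, at 0.42 ± 0.18 (unadjusted p = 0.0389, adjusted p = 0.740 in edgeR). Between genotypes with PBS it was at -0.59 ± 0.18 (unadjusted p = 0.00766, adjusted p = 0.411 in edgeR).

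Among 11475 other genes with a mean of at least 5 CPM, those whose log2 level was most like that of *Zbtb22* over the 12 libraries were *Tuba1a* (Pearson r 0.895), *Ssr2* (0.87), *Ldlrad3* (0.86), *Tspan6* (0.85) and *Plb1* (0.85). Since *Zbtb22* was chosen for being low in AhRfl/fl CRE cells, genes like it are low there by choice, and their means are a description. *Tuba1a*, an α-tubulin, had means of 541 and 471 CPM in AhRfl/fl cells with PBS and CRE, and *Ssr2*, a subunit of the translocon-associated complex, of 239 and 175 CPM. Those most like *Tap1* were *Lyn* (0.93), *Dock11* (0.92), *Psd4* (0.92), *Ccl9* (0.91) and *Fmnl3* (0.90), of which *Lyn* encodes a kinase of myeloid and B cells and *Ccl9* a chemokine of myeloid cells. *Psmb8* was number 7 in this order with r of 0.88.

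Of 21 listed relatives of the classical heavy chains, 18 were tested, and 0 were called in each of the 5 comparisons. The most abundant were *H2-Q4* (68.4 to 96.6 CPM), *H2-T22* (66.0 to 96.1 CPM) and *H2-T23* (49.7 to 68.4 CPM), the latter encoding the nonclassical molecule Qa-1. The median log2 change with CRE was 0.13 in AhRfl/fl and 0.10 in Sftpc-Cre;AhRfl/fl cells. With the block in each genotype *Hfe*, a class I-like regulator of iron uptake that presents no peptide, rose with CRE in AhRfl/fl cells by 0.60 ± 0.12 (adjusted p = 0.0424 in edgeR). That is 1 of 18 genes, beside 3.63% of all genes called there. *H2-Q7*, a gene of the nonclassical Qa-2 molecule, had library 1 highest in all 4 groups, at 42.7, 11.1 and 3.48 CPM in AhRfl/fl PBS.

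For peptide loading and trimming 17 genes were tested and 1 was called, in both comparisons of genotypes, beside 0.150% of all genes with PBS and 0.170% with CRE. *Ide*, a cytosolic metalloprotease best known for degrading insulin, was higher in Sftpc-Cre;AhRfl/fl cells than in AhRfl/fl cells with PBS (log2 difference 0.51 ± 0.056, adjusted p = 0.00363 in edgeR) and with CRE (0.44 ± 0.056, adjusted p = 0.00954). Its level was 219, 222 and 233 CPM in AhRfl/fl PBS, 221, 237 and 240 in AhRfl/fl CRE, 331, 318 and 310 in Sftpc-Cre;AhRfl/fl PBS and 321, 308 and 316 CPM in Sftpc-Cre;AhRfl/fl CRE libraries, so that all 6 libraries of one genotype were above all 6 of the other. The chaperones of the loading complex were abundant, with *Calr* at 643 to 746 CPM, *Canx* at 467 to 604 CPM and *Pdia3* at 703 to 835 CPM, and were not called in any comparison. The median of the 17 was between -0.0020 and 0.05 in the 4 comparisons of groups.

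Of the constitutive proteasome, its activators and *Psmb10*, 20 genes were tested and 0 were called without the block. With CRE in Sftpc-Cre;AhRfl/fl cells all 20 had a log2 change above 0, with a median of 0.15 beside -0.00265 over all genes tested. Of the 20, 7 had an unadjusted p below 0.05, beside 1336 of all 20612 genes. With the block 3 of the 20 rose there, beside 2.13% of all genes called either way. They were *Psma5* (0.43 ± 0.051, adjusted p = 0.0106 in edgeR), *Psma6* (0.23 ± 0.042, adjusted p = 0.0481) and *Psmb5* (0.23 ± 0.037, adjusted p = 0.0334), 2 structural subunits and the catalytic subunit that the immunoproteasome replaces with *Psmb8*. In AhRfl/fl cells the median with CRE was -0.0060. With the block 1 of the 20 rose there, beside 3.63% of all genes called either way. It was *Psme4* (0.27 ± 0.038, adjusted p = 0.0171 in edgeR), which encodes a proteasome activator. Between genotypes with PBS 19 of the 20 were below 0 (median -0.18, beside -0.00103 over all genes tested), and 11 had an unadjusted p below 0.05, beside 1725 of all 20612 genes. These comparisons share their PBS libraries of Sftpc-Cre;AhRfl/fl cells: *Psma5* was at 93.6, 117 and 114 CPM in them, against 124 to 156 CPM in the other 9 libraries.

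Of 27 regulators of class I expression, 27 were tested and 0 were called without the block, with medians between -0.02 and 0.11 in the 4 comparisons of groups. With CRE in AhRfl/fl cells 3 of the 27 had an unadjusted p below 0.05, beside 1929 of all 20612 genes. Among them was *Irf1*, at 0.43 ± 0.10 (unadjusted p = 0.0014, adjusted p = 0.167 in edgeR). In Sftpc-Cre;AhRfl/fl cells *Irf1* was at 0.21 ± 0.10 (adjusted p = 0.805 in edgeR). With the block *Nfkb1*, which encodes the p105 and p50 subunits of NF-κB, rose with CRE in both genotypes, by 0.32 ± 0.056 in AhRfl/fl cells (adjusted p = 0.0332 in edgeR) and by 0.33 ± 0.056 in Sftpc-Cre;AhRfl/fl cells (adjusted p = 0.0355). That is 1 of the 27 in each, beside 3.63% and 2.13% of all genes called. *H2-K1* and *H2-D1*, whose promoter windows hold the NF-κB letters printed above, were at 0.08 ± 0.060 and -0.04 ± 0.045 in the same fit of AhRfl/fl cells. In Sftpc-Cre;AhRfl/fl cells they were at 0.06 ± 0.060 and 0.15 ± 0.045, the latter with an unadjusted p of 0.0146 and an adjusted p of 0.200 in edgeR. The interferon regulator *Irf8* had library 1 highest in all 4 groups, at 19.1, 4.96 and 2.25 CPM in AhRfl/fl PBS. Among the leukocyte markers *Cd14*, the lipopolysaccharide coreceptor, was the only one called without the block, higher with CRE in Sftpc-Cre;AhRfl/fl cells (1.42 ± 0.21, adjusted p = 0.0207 in edgeR). Its level was 33.4, 51.2 and 53.4 CPM in AhRfl/fl PBS, 78.7, 112 and 121 in AhRfl/fl CRE, 39.1, 28.4 and 28.1 in Sftpc-Cre;AhRfl/fl PBS and 82.6, 90.8 and 81.8 CPM in Sftpc-Cre;AhRfl/fl CRE libraries, with library 1 lowest in both AhRfl/fl groups. Of the 11 leukocyte markers, 3 in AhRfl/fl and 4 in Sftpc-Cre;AhRfl/fl cells had a log2 change with CRE above 0 without the block, and the medians were -0.16 and -0.11. With the block *Cd14* rose in both genotypes (1.18 ± 0.11 and 1.43 ± 0.11, adjusted p = 0.00376 and 0.00255 in edgeR). In the same fit *Itgax*, which encodes the integrin CD11c, fell in both (-0.58 ± 0.11 and -1.13 ± 0.11, adjusted p = 0.0439 and 0.00574 in edgeR), and *Laptm5*, a lysosomal protein gene of blood cells, fell in AhRfl/fl cells (-0.45 ± 0.085, adjusted p = 0.0410 in edgeR).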

How the data were processed

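The deposited table holds, for each of 55450 genes and 12 libraries, a count and an FPKM. According to the labels and the study's methods the authors made TruSeq stranded mRNA libraries, aligned reads to GRCm38 with STAR 2.7.2b, annotated the alignments with Partek and RefSeq, and took gene levels as counts from Salmon. The deposited counts are whole numbers, not normalized; how they became whole is not given in the sources used here. The deposited FPKM values divide the count by the exon length of the gene. All gene IDs of the table matched GENCODE M21, which gave symbols and positions, although the methods name RefSeq, so the annotation behind the counts is uncertain. Single-library tables hold the same values and were not used.

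Counts were normalized with TMM and filtered with filterByExpr (minimum count 10, 20612 genes) in edgeR 4.0.16 under R 4.3.3. Group means of all 12 libraries were fitted in 1 quasi-likelihood model, and 4 comparisons and the difference of responses were tested with Benjamini-Hochberg adjustment at 0.05. Standard errors are the fold change over the root of F. The script was tested on simulated data. Alternatives were DESeq2 1.42.0, limma-trend (limma 3.58.1, prior count 2), other size factors, no filter, the 6 libraries compared, replicate blocks and leaving out libraries. Figures and tables used Python 3.11.15.

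Replicate numbers were checked for pairing over 14543 genes with a mean of at least 1 CPM, by the correlation of deviations from group means. Same-number CRE and PBS libraries had r of 0.729, 0.418 and 0.651 in AhRfl/fl and 0.589, 0.542 and 0.325 in Sftpc-Cre;AhRfl/fl cells, so numbers were taken to pair libraries within a genotype.

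The members, lists and tests were chosen with earlier results of these data known. The named genes include every member and the 5 genes most like *Zbtb22* and *Tap1*. They also include called genes of the lists of relatives, loading, proteasome, regulator and leukocyte genes. The 3 most abundant genes were named for the heavy chain relatives and the loading genes only. Most tested genes near *Tapbp* were counted but not named. *Pfdn6*, *H2-Ke6*, *Irf1*, *Ptprc*, *H2-Q7*, *Irf8*, *Gm19412* and, in the closing section, *H2-Q1*, *Nfya* and *Creb1* were named after their values were seen. The total count was 68878065 or more in each library.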

Additional observations from a re-analysis of the deposited data

Results flagged for a closer look

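The difference between the genotypes for *Zbtb22* had opposite directions in the 2 treatments. With PBS all 3 Sftpc-Cre;AhRfl/fl libraries were below all 3 AhRfl/fl libraries (means 35.7 and 40.0 CPM, log2 difference -0.17). With CRE all 3 were above (means 35.8 and 9.65 CPM, log2 difference 1.89). The log2 differences thus differ by 2.06 between treatments. The gene was picked for this pattern, and the difference was not tested. None of the other 9 genes had opposite directions of this kind.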

How the results depend on the processing

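None of the 9 class I genes was called in any of the 5 comparisons by edgeR with all libraries, in any of the 369 values under other settings or in the 324 values with 1 library left out, and the smallest adjusted p over all of these was 0.101. The counts of all genes called depended on the setting, and the cause was not tested. DESeq2 called 377, 238, 235, 171 and 22 genes, and the study's rule 848, 696, 846, 705 and 475 genes, for CRE in AhRfl/fl cells, CRE in Sftpc-Cre;AhRfl/fl cells, genotype with PBS, genotype with CRE and the difference of the responses, beside 48, 54, 31, 35 and 0. With only the 6 libraries compared, 13 genes (CRE in Sftpc-Cre;AhRfl/fl cells) and 15 genes (genotype with PBS) were called. Without the 2 libraries low in *Tapbp*, chosen after the data were seen, the counts were 19 and 27 with CRE and 16 between genotypes with PBS. Without the 4 libraries numbered 1, also chosen then, they were 19 between genotypes with CRE and 4 for the difference. With 1 library left out they ranged from 19 to 47, 23 to 62, 15 to 26, 21 to 30 and 0 to 2.

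With the replicate number as 1 block over both genotypes, 137, 112, 71 and 55 genes were called in the 4 comparisons of groups. With the block within each genotype 748 and 439 were called with CRE. With PBS same-number libraries of different genotypes had r of 0.42, 0.0416 and 0.106 for numbers 1, 2 and 3. With CRE r was 0.413, -0.0286 and 0.0867. The libraries numbered 1 thus deviated together between genotypes as well, and the labels do not say what they have in common. The block changed no call of the 9 class I genes.

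Of the 45 log2 fold changes of these genes, 11 kept their sign under all settings. *Psmb9* with CRE in AhRfl/fl cells turned to -0.0045 (limma-trend), -0.0090 (block), -0.0028 (block within genotype) and -0.15 (without the 4 libraries numbered 1). Without the 2 libraries low in *Tapbp*, *B2m* with CRE in AhRfl/fl cells was 0.25, *Tap1* and *Psmb9* with CRE in Sftpc-Cre;AhRfl/fl cells -0.068 and -0.041, *Tap2* and *Psmb8* between genotypes with PBS 0.0046 and 0.27, and *B2m*, *Psmb8* and *Psmb9* for the difference -0.12, -0.23 and -0.27. Without the 4 libraries numbered 1, *Nlrc5* with CRE in Sftpc-Cre;AhRfl/fl cells was 0.029, *H2-K1* between genotypes with PBS 0.016, and *H2-D1* and *Tapbp* between genotypes with CRE 0.0038 and -0.033. With 1 library left out, 33 of the 45 changed sign at least once, within the following ranges. For CRE in AhRfl/fl cells these were -0.028 to 0.14 (*H2-K1*), -0.099 to 0.00098 (*H2-D1*), -0.28 to 0.25 (*B2m*), -0.015 to 0.45 (*Tap1*), -0.0022 to 0.075 (*Tap2*), -0.28 to 1.74 (*Nlrc5*), -0.14 to 0.33 (*Psmb8*) and -0.35 to 0.33 (*Psmb9*). For CRE in Sftpc-Cre;AhRfl/fl cells they were -0.0093 to 0.13 (*H2-K1*), -0.068 to 0.33 (*Tap1*), -0.041 to 0.045 (*Tap2*), -0.64 to 0.59 (*Nlrc5*) and -0.15 to 0.55 (*Psmb9*). Between genotypes with PBS they were -0.11 to 0.023 (*H2-K1*), -0.17 to 0.26 (*B2m*), -0.24 to 0.32 (*Tap1*), -0.38 to 0.081 (*Tapbp*), -0.32 to 0.13 (*Psmb8*) and -0.094 to 0.50 (*Psmb9*). Between genotypes with CRE they were -0.12 to 0.041 (*H2-K1*), -0.035 to 0.015 (*H2-D1*), -0.13 to 0.055 (*Tap1*), -0.024 to 0.12 (*Tapbp*), -0.46 to 0.93 (*Nlrc5*) and -0.14 to 0.26 (*Psmb8*). For the difference of the responses they were -0.089 to 0.088 (*H2-K1*), -0.10 to 0.43 (*B2m*), -0.37 to 0.19 (*Tap1*), -0.079 to 0.012 (*Tap2*), -0.026 to 0.44 (*Tapbp*), -1.83 to 0.19 (*Nlrc5*), -0.089 to 0.39 (*Psmb8*) and -0.19 to 0.51 (*Psmb9*).

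With FPKM in place of counts the share of *Zbtb22* was 4.72% in AhRfl/fl CRE and 14.9% in Sftpc-Cre;AhRfl/fl CRE libraries, since FPKM divides by the shorter exon length of *Zbtb22*. On library size alone *Zbtb22* was at 36.2 CPM in Sftpc-Cre;AhRfl/fl PBS libraries. Per kb of the longest coding transcript *Psmb8*, *Tap2* and *Zbtb22* took places 5, 6 and 7 of the order. Wide intervals limit what can be seen for *Nlrc5* and *Psmb9*, the least abundant of the 10.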

Other observations

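Isolated low values like those of *Tapbp* and *Zbtb22* were looked for among all 7917 tested genes with a mean of at least 20 CPM, after these values had been seen. A gene was counted when 1 to 3 libraries were at or below 0.6 times its median while all others lay between 0.8 and 1.25 times the median. This held for 121 genes (1.53%), with 1 low library in 71, 2 in 30 and 3 in 20 of them. *Tapbp* and *Zbtb22* are among the 121 because the limits were set with their values in view, so the count describes the other genes.

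*H2-Q1*, a nonclassical heavy chain gene below the 20 CPM limit of that count, was low in the pair of libraries in which *Tapbp* was low (library 1 of AhRfl/fl PBS and library 3 of Sftpc-Cre;AhRfl/fl PBS), at 1.32 and 1.25 CPM against 4.34 to 9.23 CPM in the other 10. *Nfya*, a subunit of the NF-Y factor that binds class I promoters, was at 24.9 CPM in library 1 of AhRfl/fl CRE and at 25.3 and 27.9 CPM in libraries 2 and 1 of Sftpc-Cre;AhRfl/fl CRE, and at 39.2 to 50.8 CPM in the other 9. *Creb1* was at 33.8 and 34.5 CPM in library 1 of Sftpc-Cre;AhRfl/fl CRE and library 3 of AhRfl/fl PBS, at 49.1 CPM in library 1 of AhRfl/fl CRE and at 63.7 to 81.6 CPM in the other 9.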
